A study of Mus musculus with 8 samples.

Results

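Aminoacyl-tRNA synthetases are the enzymes that join each amino acid to its matching transfer RNA, the step that fixes which amino acid a codon is read as. The genes described here are 35 synthetase genes, found by gene symbol, with no measured value in the rule, in a table of 23504 symbols. Of these, 20 encode cytosolic enzymes and 15 encode mitochondrial enzymes. All 35 symbols were found and all 35 had enough counts to be tested, beside 14711 genes tested in all. Lars2, the mitochondrial leucine enzyme, was left out because that row collects ribosomal reads, and it took between 0.399% and 6.06% of the counts in these libraries.

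The study asked which genes differ in the mouse kidney after high fat feeding. Wild type C57Bl6/J mice were given a high fat diet (libraries A, B, F and G) or a control diet (libraries I, J, L and M) from 6 weeks of age for 9 weeks, and were 15 weeks old at the end. The capsule was stripped off, the outer cortex was cut away by hand, and 1 ug of total RNA went into each ribosomal RNA depleted library. The composition of the diets was not stated. Nothing in the labels ties each library to a mouse of its own, so the p-values measure the spread between these 4 and 4 libraries, which may be technical.

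Cytosolic synthetases serve protein synthesis on cytosolic ribosomes, and the mitochondrial enzymes, which are also encoded in the nucleus, serve the mitochondrial ribosomes that make the core subunits of the respiratory chain. Synthetases fall into a pair of structural classes, I and II, with unrelated catalytic folds. Several cytosolic enzymes are held together in the multisynthetase complex. The proximal tubule, which makes up most of the outer cortex, is rich in mitochondria and both makes protein and reabsorbs amino acids at a high rate. Many cytosolic synthetase genes are known targets of ATF4, a transcription factor that is translated when amino acids are short or when unfolded protein builds up.

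The libraries held between 23503600 and 30781600 expected counts. The ribosomal RNA precursor row Rn45s took 4.82% to 13.3% of the counts on the high fat diet and 1.23% to 5.70% in control I, L and M, but 50.3% in control J. With that row left out, control J held 13993700 counts and the other libraries between 21793800 and 30403700. Proximal tubule markers summed to between 22592 and 23552 CPM (normalized counts scaled to 1e6 per library) on the high fat diet and between 22837 and 23952 CPM on the control diet, and none of the 8 markers was at 0. Of these 8, Slc34a1 rose (log2 change 0.33, adjusted p = 0.0495 by edgeR), Cubn and Aqp1 fell (-0.26 and -0.22, adjusted p = 0.0182 and 0.0446 by edgeR), and 5 did not pass. Markers of the thick ascending limb summed to 2835 to 3577 CPM on the high fat diet and 3554 to 4213 CPM on the control diet, and 3 of these 4 markers fell. Of 6 collecting duct markers, Scnn1g fell (log2 change -0.44, adjusted p = 0.0037 by edgeR) and 5 did not pass. Over all tested genes, 5.13% fell and 4.86% rose. Summed red cell markers reached 1401 CPM in high fat G, against 230 to 463 CPM in the other libraries. Summed liver markers lay at 119 to 198 CPM on the high fat diet and 79.2 to 114 CPM on the control diet, where Ttr alone rose and 1 of the 4 markers was at 0 throughout. Fat cell and skeletal muscle markers summed to at most 1.02 and 0.988 CPM in any library. The part of these differences in the results below was not tested.

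Promoter sequences show where known regulatory motifs lie in these genes, so they are given before the values. RefSeq promoter windows (GRCm38.p6, 250 bases before to 50 bases after a transcription start) were matched by symbol for 26 of the 35 genes, 13 cytosolic and 13 mitochondrial, in 27 windows because Aars2 has 2. Cars, Hars, Lars, Nars, Rars, Vars, Wars, Hars2 and Pars2 had no window. Both strands were searched for 4 motifs: TGATGNAA, the core of the amino acid response element that ATF4 binds together with C/EBP proteins, CACGTG, the E-box bound by factors such as MYC, CCAAT, bound by NF-Y, and ACTTCCGG, an ETS-type site. No match overlapped a match of another motif.

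The amino acid response core was found in 5 of 13 cytosolic windows and in 0 of 14 mitochondrial windows, beside 3.97% of the 32851 windows of this length in the whole table. The genes with a match were Aars, Gars, Iars, Tars and Yars. The match nearest to the start of each is shown in a window of 30 bases, read 5′ to 3′ on the strand of the gene, with the motif or its reverse complement in capitals:
Aars, chr8:111033840-111033869, plus strand: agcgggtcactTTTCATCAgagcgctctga
Gars, chr6:55037960-55037989, plus strand: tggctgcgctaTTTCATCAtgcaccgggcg
Iars, chr13:49682126-49682155, plus strand: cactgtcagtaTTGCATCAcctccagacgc
Tars, chr15:11399655-11399684, minus strand: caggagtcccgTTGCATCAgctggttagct
Yars, chr4:129189895-129189924, plus strand: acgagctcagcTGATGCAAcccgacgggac
In 4 of these 5 windows the motif is on the strand opposite to the gene, and the Yars match reads in the direction of the gene. Counted with the start as base 1 and the base before it as -1, the first base of the match lies at 10 in Aars, -30 in Gars, 8 in Iars, -15 in Tars and 4 in Yars. Log2 changes (high fat over control) of these 5 genes were all below 0, with a median of -0.16 and a range from -0.23 to -0.093. The 8 cytosolic genes with a window and no match had a median of -0.079, and 5 of them were below 0. Cytosolic genes without a window are in neither set. Of all 20 cytosolic genes 16 were below 0, with a median of -0.12. These are descriptions of few genes, and a match in a window is not shown to be a bound site.

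The E-box was found in 4 of 13 cytosolic windows, those of Aars, Farsb, Iars and Tars, and in 1 of 14 mitochondrial windows, that of Ears2, beside 7.15% of all windows. CCAAT was found in 7 cytosolic and 6 mitochondrial windows, beside 37.4% of all, and the ETS-type site in Farsa, Mars and Rars2, beside 3.89% of all. The 3 synthetase genes whose mRNA passed the test between the diets differ in these letters, and the 250 bases before their starts are shown for that reason, with matches to TGATGNAA and CACGTG in capitals:
Eprs, chr1:185362794-185363043, plus strand: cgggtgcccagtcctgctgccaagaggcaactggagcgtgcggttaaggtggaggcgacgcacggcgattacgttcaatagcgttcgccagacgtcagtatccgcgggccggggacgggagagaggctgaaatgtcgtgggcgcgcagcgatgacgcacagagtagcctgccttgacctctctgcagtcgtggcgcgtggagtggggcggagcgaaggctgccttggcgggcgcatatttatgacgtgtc
Tars, chr15:11399659-11399908, minus strand: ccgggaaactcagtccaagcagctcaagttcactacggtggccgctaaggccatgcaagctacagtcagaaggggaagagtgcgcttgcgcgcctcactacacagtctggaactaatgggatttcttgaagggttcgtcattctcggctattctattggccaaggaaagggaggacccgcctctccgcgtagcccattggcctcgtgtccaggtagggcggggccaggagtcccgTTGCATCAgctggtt
Farsb, chr1:78488898-78489147, minus strand: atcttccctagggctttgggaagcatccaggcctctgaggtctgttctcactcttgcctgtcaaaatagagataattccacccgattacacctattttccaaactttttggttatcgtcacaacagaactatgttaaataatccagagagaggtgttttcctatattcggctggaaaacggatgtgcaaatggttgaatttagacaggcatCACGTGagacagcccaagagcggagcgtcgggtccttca
Eprs holds neither motif in its window, Tars holds the response core 15 bases before its start with an E-box at position 20 after it, and Farsb holds an E-box 39 bases before its start.

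**Figure D1:**
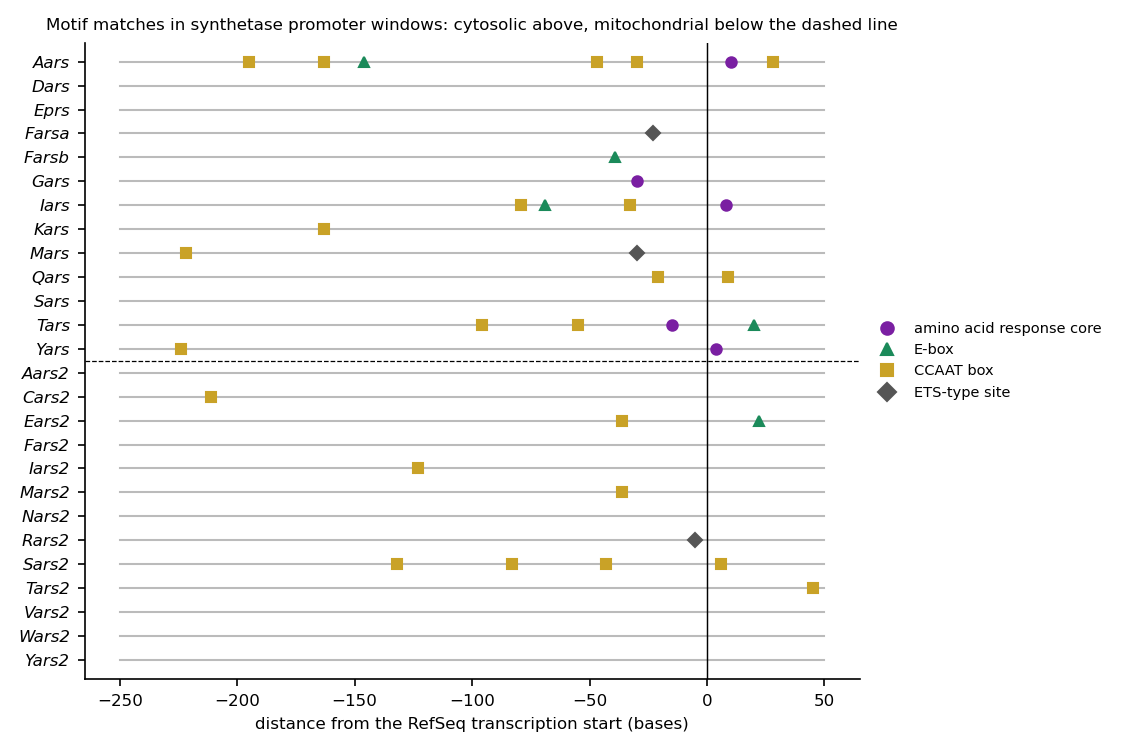
Matches of 4 motifs along the RefSeq promoter windows of 26 synthetase genes, from 250 bases before to 50 bases after the transcription start (vertical line); each symbol stands at the first base of a match, and for the amino acid response core the match nearest to the start is drawn. The amino acid response core (circles) appears in 5 cytosolic rows, above the dashed line, and in 0 mitochondrial rows.

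Between the diets, 3 of the 35 synthetase mRNAs passed the test, all of them cytosolic. Eprs and Tars fell and Farsb rose. These 3 make up 8.57% of the family, beside 9.99% of all tested genes (5.13% lower and 4.86% higher), a share near that of genes in general. Calls are at an adjusted p under 0.05 in edgeR's quasi-likelihood test with Benjamini-Hochberg adjustment over all tested genes. The changes were small: log2 fold changes of the cytosolic genes ran from -0.23 to 0.24, and those of the mitochondrial genes from -0.18 to 0.18.

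The cytosolic genes leaned lower on the high fat diet without most of them passing. Their median log2 change was -0.12, against -0.0023 over all tested genes, and 16 of 20 were below 0, against 50.5% of all tested genes. At an unadjusted p under 0.05, 8 cytosolic genes were lower, beside 14.1% of all tested genes, and 1 was higher, beside 13.3%. All 4 high fat libraries lay below all 4 control libraries in 6 of the 20, Aars, Eprs, Gars, Nars, Tars and Wars, beside 9.2% of all tested genes, and above them in 1, Farsb, beside 8.31%. Genes that vary together are not separate counts. The 15 mitochondrial genes had a median log2 change of 0.013, 7 below 0 and 8 above, and in none of them did the diets separate. In whole cortex, fewer cells of a type and less RNA per cell cannot be told apart.

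**Figure D2:**
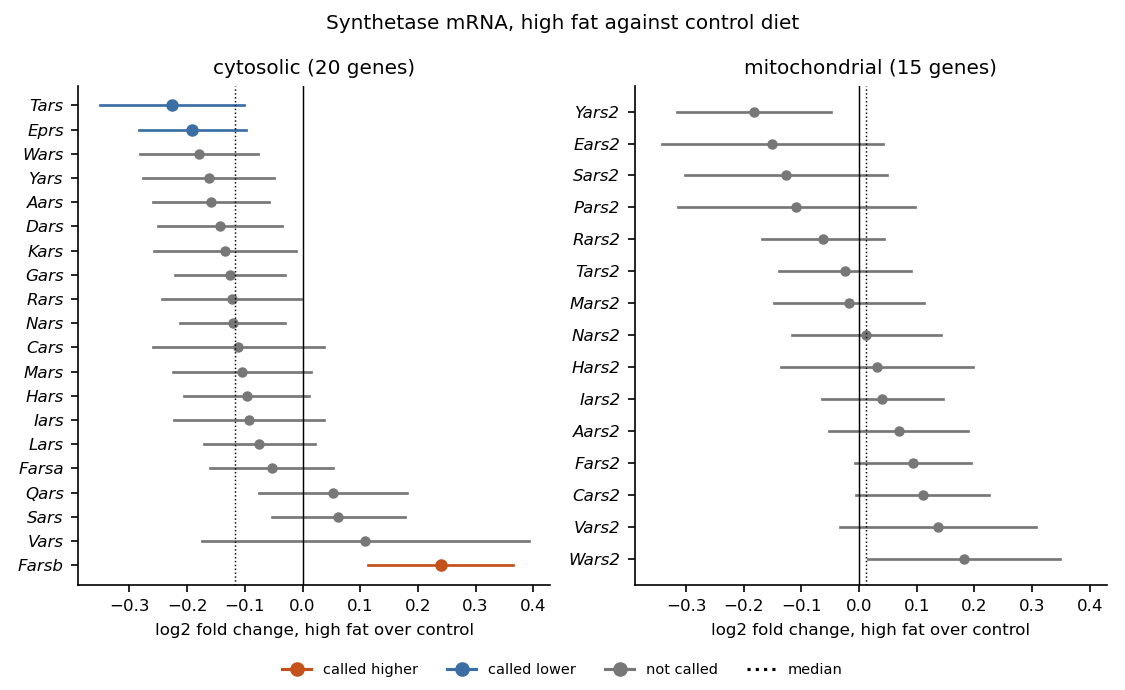
Log2 fold change of each synthetase mRNA, high fat over control, with a bar of 1.96 standard errors to each side. These bars are narrower than 95% intervals from edgeR's test would be. Those of Wars2, Kars and Rars leave out 0 at unadjusted p of 0.0553, 0.0559 and 0.0705 in edgeR. Dotted lines mark the median of each compartment, -0.12 for 20 cytosolic and 0.013 for 15 mitochondrial genes. Tars and Eprs (called lower) and Farsb (called higher) are coloured.

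Eprs encodes the fused enzyme that charges both glutamate and proline tRNAs and is the largest subunit of the multisynthetase complex (chromosome 1, 185363044 to 185428360, plus strand, GENCODE M21 on GRCm38). It had 152, 156, 146 and 144 CPM in high fat A, B, F and G, against 171, 168, 173 and 172 CPM in control I, J, L and M. All 4 high fat libraries were below all 4 control libraries. The means were 149.6 ± 5.43 CPM on the high fat diet and 170.8 ± 2.20 CPM on the control diet (SD, n = 4 each), which edgeR gave as -0.19 ± 0.047 (SE) on the log2 scale (adjusted p = 0.0304). The call held in 3 of 8 fits that left out 1 library. It was lost without high fat A (adjusted p = 0.0563 in edgeR), F (0.0858) or G (0.0786) and without control I (0.0746) or L (0.0671).

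Tars encodes the cytosolic threonine enzyme (chromosome 15, 11382301 to 11399665, minus strand). It had 49.5, 48.5, 42.8 and 42.0 CPM in high fat A, B, F and G, against 53.8, 53.5, 52.9 and 53.4 CPM in control I, J, L and M. The diets did not overlap, and high fat F and G were lower than A and B. The means were 45.7 ± 3.87 CPM on the high fat diet and 53.4 ± 0.372 CPM on the control diet (SD, n = 4 each), which edgeR gave as -0.23 ± 0.064 (SE) on the log2 scale (adjusted p = 0.0474). Tars kept its call only without high fat A or B. It was lost without high fat F (adjusted p = 0.126 in edgeR) or G (0.115), without control I (0.105), J (0.0898), L (0.0852) or M (0.0696), and with DESeq2 size factors (0.0535).

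Farsb encodes the beta subunit of the cytosolic phenylalanine enzyme, which works only when joined to the alpha subunit encoded by Farsa (chromosome 1, 78417975 to 78488897, minus strand). It had 71.0, 61.8, 63.8 and 64.4 CPM in high fat A, B, F and G, against 54.5, 50.5, 57.4 and 58.1 CPM in control I, J, L and M. Every high fat library was above every control library, with high fat A the highest. The means were 65.2 ± 3.99 CPM on the high fat diet and 55.1 ± 3.46 CPM on the control diet (SD, n = 4 each), which edgeR gave as 0.24 ± 0.064 (SE) on the log2 scale (adjusted p = 0.0388). The call held only without high fat B or control M. It was lost without high fat A (adjusted p = 0.0926 in edgeR), F (0.0756) or G (0.0723), without control I (0.0976), J (0.0902) or L (0.0588), and with no filter on low counts (0.0525). Farsb shares 248 bases of exon with Sgpp2 on the opposite strand, and the sources used here do not give whether counting used strand. Sgpp2 lay at 22.5 ± 1.10 CPM on the high fat diet and 21.4 ± 1.04 CPM on the control diet (SD, n = 4 each).

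Farsa was not called. It had 26.2, 26.0, 24.9 and 25.6 CPM in high fat A, B, F and G, against 27.8, 26.4, 25.4 and 26.9 CPM in control I, J, L and M, with overlap between the diets and a log2 fold change of -0.053 ± 0.054 (SE; adjusted p = 0.568 in edgeR). Per length, in the authors' FPKM rescaled to 1e6 per library without Rn45s, Farsb lay above Farsa in all 8 libraries. The ratio of their levels was 2.17 ± 0.118 on the high fat diet, from 2.03 to 2.32, and 1.77 ± 0.139 on the control diet, from 1.64 to 1.93 (SD, n = 4 each). The 2 ranges did not overlap. This ratio was chosen after the values were seen and carries no test.

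Of the cytosolic genes with separated diets but no call, Wars, the tryptophan enzyme, came nearest. It had 34.6, 34.7, 36.9 and 35.7 CPM in high fat A, B, F and G, against 38.4, 41.4, 39.9 and 41.1 CPM in control I, J, L and M, which edgeR gave as -0.18 ± 0.052 (SE) on the log2 scale (adjusted p = 0.0530). Aars, the alanine enzyme, had 111, 114, 115 and 114 CPM in the high fat libraries, against 118, 132, 125 and 131 CPM in the control libraries (log2 fold change -0.16, adjusted p = 0.0732 in edgeR). Control I was the control library nearest to the high fat values. Aars shares 1326 bases of exon on the same strand with Exosc6, an exosome subunit gene at 7.12 ± 0.639 CPM on the high fat diet and 8.72 ± 1.10 CPM on the control diet (SD, n = 4 each), so the split of reads between them is uncertain. With the trend of counts with transcript length removed, an alternative chosen after seeing the data, Aars was called as well (adjusted p = 0.0356 in edgeR).

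Gars, whose glycine enzyme serves both the cytosol and mitochondria, had 59.7, 58.7, 56.8 and 60.4 CPM in the high fat libraries, against 63.1, 64.1, 66.8 and 63.0 CPM in the control libraries. Nars, the asparagine enzyme, had 116, 119, 112 and 113 CPM in the high fat libraries, against 126, 124, 128 and 123 CPM in the control libraries. Their log2 fold changes were -0.13 and -0.12, with adjusted p = 0.124 and 0.117 in edgeR. In both genes the gap between the diets was narrow.

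**Figure D3:**
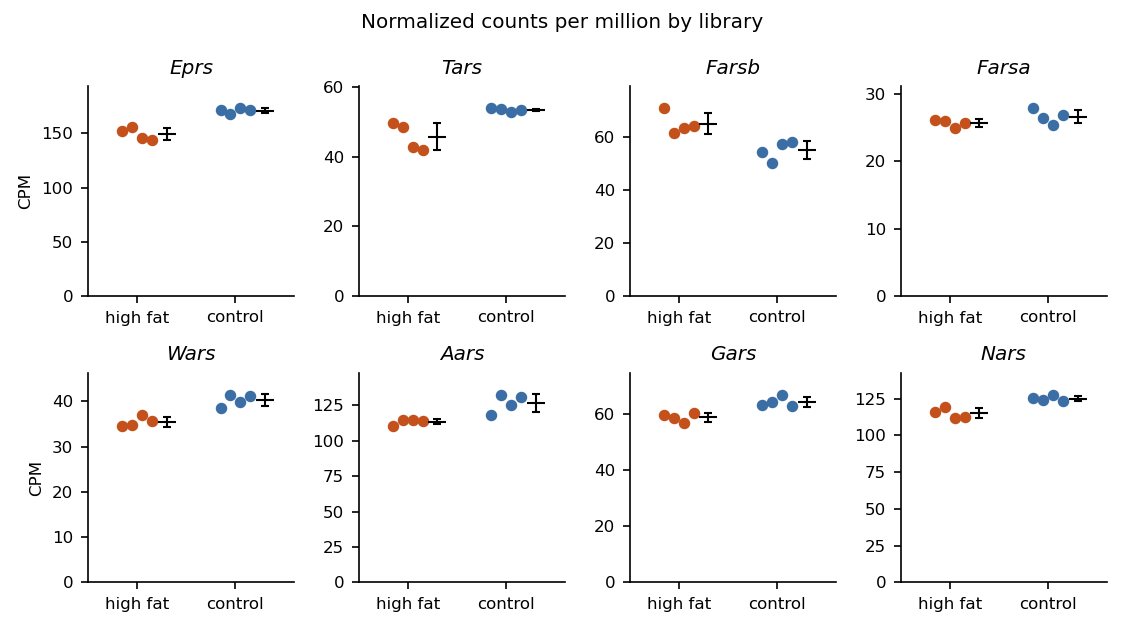
CPM of 8 cytosolic synthetase mRNAs in each library, high fat at left and control at right of each panel, from 0; the bar beside each set of 4 points is the mean with its SD. Eprs, Tars, Wars, Aars, Gars and Nars show 4 high fat values below 4 control values, Farsb shows the opposite order and Farsa overlaps.

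The 8 catalytic members of the multisynthetase complex lay at a median of -0.11 on the log2 scale, 7 of them below 0 and 1, Eprs, called. Beside Eprs these were Dars (aspartate, -0.14), Kars (lysine, serving both compartments, -0.13), Rars (arginine, -0.12), Mars (methionine, -0.11), Iars (isoleucine, -0.093), Lars (leucine, -0.075) and Qars (glutamine, 0.052), with adjusted p from 0.119 to 0.654 in edgeR. The 12 cytosolic genes outside the complex had a median of -0.12, with 1 called lower and 1 called higher. The 2 medians lay close together. Over all tested genes, 5.13% were called lower and 4.86% higher, so counts of 1 in such small sets do not stand out. Outside the complex, Yars (tyrosine), Cars (cysteine) and Hars (histidine) had log2 changes of -0.16, -0.11 and -0.097, and Sars (serine) and Vars (valine) 0.062 and 0.11, with adjusted p from 0.0992 to 0.671 in edgeR.

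Vars was the least precisely measured, with a standard error of 0.14. It had 24.9, 20.1, 26.3 and 27.9 CPM in high fat A, B, F and G, against 18.3, 19.8, 23.9 and 29.4 CPM in control I, J, L and M, so that the highest and lowest of its 8 values were both control libraries. By structural class, the 9 cytosolic class I genes lay at a median of -0.11 on the log2 scale, 0 of them called, 2 at an unadjusted p under 0.05 and 0 called by DESeq2 or limma-voom. The 10 class II genes had a median of -0.12 with 1 called lower and 1 called higher. Eprs holds an enzyme of each class and is in neither count. Over all tested genes, 5.13% were called lower and 4.86% higher, and 14.1% were lower and 13.3% higher at an unadjusted p under 0.05. Counts this small do not set the classes apart.

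None of the 15 mitochondrial genes was called by edgeR, DESeq2 or limma-voom, and 1, Yars2, had an unadjusted p under 0.05. Of all tested genes, edgeR called 9.99%, and at an unadjusted p under 0.05 14.1% were lower and 13.3% higher. With so few genes, 0 calls does not set the mitochondrial genes apart from genes in general. Yars2, the tyrosine enzyme, had 23.3, 22.4, 20.0 and 20.8 CPM in high fat A, B, F and G, against 24.9, 22.9, 24.1 and 25.9 CPM in control I, J, L and M, a log2 fold change of -0.18 ± 0.068 (SE; adjusted p = 0.112 in edgeR). High fat A lay above control J. Wars2, the tryptophan enzyme, had 18.7, 17.6, 18.1 and 16.5 CPM in the high fat libraries, against 13.6, 14.8, 17.0 and 16.8 CPM in the control libraries, a log2 fold change of 0.18 ± 0.085 (SE; adjusted p = 0.193 in edgeR). High fat G lay below control L and M.

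Ears2, the glutamate enzyme, had 11.9, 12.2, 11.9 and 10.4 CPM in high fat A, B, F and G, against 12.2, 15.5, 12.1 and 12.2 CPM in control I, J, L and M. Apart from high fat G and control J its values were nearly the same, and its log2 fold change of -0.15 (adjusted p = 0.350 in edgeR) was -0.020 with both of those libraries left out. Ears2 shares 89 bases of exon with Ubfd1 on the opposite strand, which fell (log2 fold change -0.21, adjusted p = 0.0405 in edgeR). Vars2, the valine enzyme, had 26.0, 28.4, 32.3 and 27.9 CPM in the high fat libraries, against 25.1, 27.6, 23.1 and 28.8 CPM in the control libraries, a log2 fold change of 0.14 ± 0.087 (SE; adjusted p = 0.342 in edgeR). High fat F alone was above every control library.

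The other 11 mitochondrial genes had log2 changes from -0.13 (Sars2) to 0.11 (Cars2), and Nars2 (0.013), Mars2 (-0.018), Tars2 (-0.024) and Hars2 (0.031) lay nearest to 0. Bars of 1.96 standard errors around the 15 log2 changes together spanned -0.34 to 0.35. Such bars are narrower than 95% intervals from edgeR's test would be, so they set no firm bound on the changes. Standard errors ran from 0.051 to 0.10 with a median of 0.066, against 0.046 to 0.14 with a median of 0.058 in the cytosolic genes. Exons shared on opposite strands make some values uncertain, with 195 bases common to Hars and Hars2, 422 to Cars2 and Naxd, 501 to Fars2 and Nrn1, 2034 to Iars2 and Rab3gap2 and 68 to Mars and Ddit3. The lowest single value was 94 expected counts, for Pars2, and the highest 5432, for Eprs.

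Summed over the 20 cytosolic genes, synthetase mRNA came to 1319, 1353, 1303 and 1296 CPM in high fat A, B, F and G, against 1382, 1394, 1407 and 1409 CPM in control I, J, L and M. The high fat libraries were all below the control libraries, at 1318 ± 25.1 CPM on the high fat diet and 1398 ± 12.4 CPM on the control diet (SD, n = 4 each). The 15 mitochondrial genes summed to 506.8 ± 13.9 CPM on the high fat diet and 498.2 ± 8.47 CPM on the control diet (SD, n = 4 each), with overlap. These sums carry no test, and in CPM they weigh long and abundant mRNAs most.

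To weigh each gene equally, the deviation of each gene's log2 CPM from its own mean was taken in each library. Its median over the cytosolic genes was -0.042, -0.016, -0.067 and -0.070 in high fat A, B, F and G, against 0.039, 0.060, 0.072 and 0.071 in control I, J, L and M. High fat B was the high fat library nearest to the control libraries. Over the mitochondrial genes the medians were 0.049, 0.052, -0.039 and -0.014 in high fat A, B, F and G, against 0.028, -0.039, 0.023 and -0.0063 in control I, J, L and M, and the diets overlapped. High fat A and B thus stood above F and G in both compartments.

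Within a library, the ratio of the summed cytosolic level to the summed mitochondrial level, per length, does not depend on how libraries are scaled. It was 2.34, 2.38, 2.38 and 2.40 in high fat A, B, F and G, against 2.48, 2.58, 2.54 and 2.51 in control I, J, L and M. Every high fat ratio was below every control ratio, with means of 2.38 ± 0.027 on the high fat diet and 2.53 ± 0.043 on the control diet (SD, n = 4 each). This ratio carries no test. It rests on the same genes and libraries as the sums and median deviations above, so it is not a separate result. The summed cytosolic level itself overlapped between the diets, at 918.7 ± 16.2 rescaled FPKM on the high fat diet and 961.5 ± 53.1 rescaled FPKM on the control diet (SD, n = 4 each), with control J at 891.1.

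**Figure D4:**
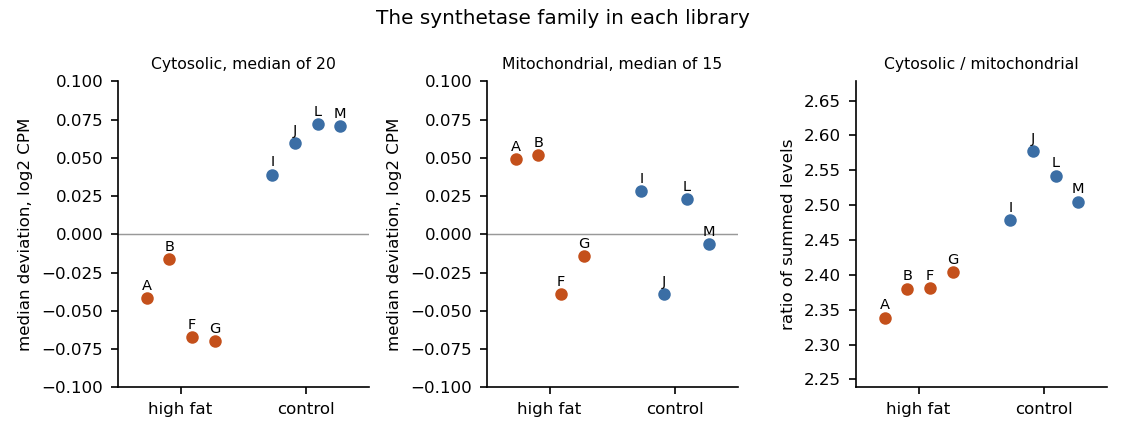
Median deviation of log2 CPM over the 20 cytosolic (left) and 15 mitochondrial (middle) synthetase genes, and the ratio of their summed rescaled FPKM (right, on an axis that does not start at 0), in each lettered library. High fat and control libraries separate for the cytosolic genes and for the ratio and overlap for the mitochondrial genes.

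Per length, the levels of the 35 mRNAs spanned more than a factor of 10, from Pars2, the mitochondrial proline enzyme, at 5.51 rescaled FPKM to Nars at 90.7 over all libraries. Cytosolic genes had a median of 46.9 and mitochondrial genes a median of 16.2 rescaled FPKM. After Nars came Dars (83.6), Iars2 (80.2), Sars (76.3), Qars (74.8), Kars (69.4) and Eprs (65.5), so the highest mitochondrial gene, the isoleucine enzyme, stood among the most abundant of the family. Iars2 shares 2034 bases of exon with Rab3gap2 on the opposite strand, so its level is uncertain. At the low end, after Pars2, came Wars2 (7.54) and Sars2 (10.2), and the cytosolic genes reached down to Vars at 11.3.

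**Figure D5:**
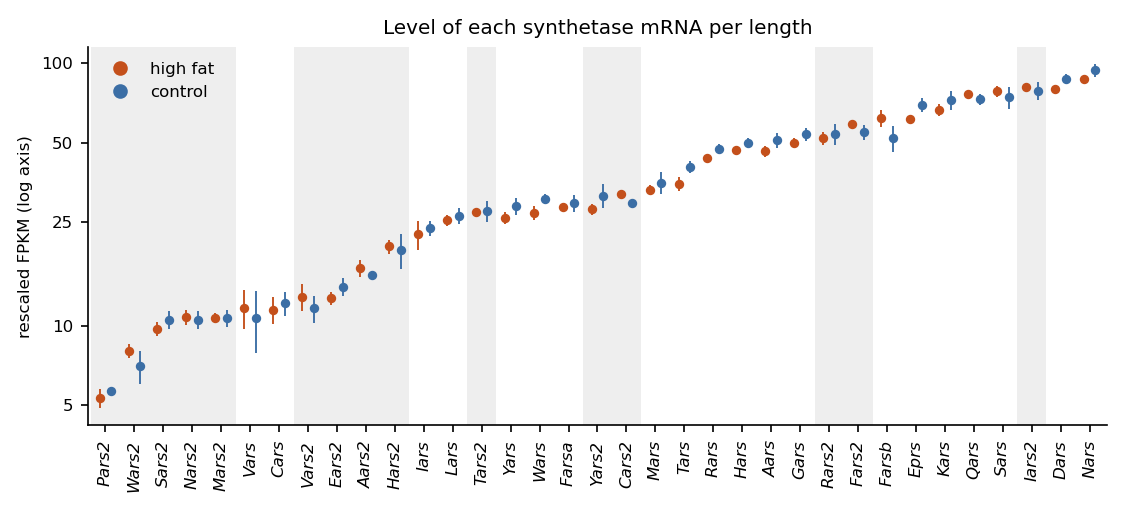
Level per length (rescaled FPKM, log axis) of each synthetase mRNA, mean and SD of 4 high fat (left point) and 4 control (right point) libraries, ordered by the mean over all libraries; grey columns are mitochondrial genes. Levels run from 5.51 (Pars2) to 90.7 (Nars), and most grey columns stand at the low end.

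For 16 combinations of a mitochondrial gene with the cytosolic gene for the same amino acid, levels per length could be set side by side within each library. The mitochondrial mRNA was the lower in all 8 libraries in 9 of them and the higher in all 8 in 4. Those 4 were Iars2 over Iars, Cars2 over Cars, Fars2 over Farsa and Rars2 over Rars. Iars2 stood to Iars at a ratio of 3.69 ± 0.491 on the high fat diet and 3.34 ± 0.192 on the control diet (SD, n = 4 each). The ratio of Cars2 to Cars was 2.80 ± 0.347 on the high fat diet and 2.41 ± 0.223 on the control diet, and that of Fars2 to Farsa was 2.07 ± 0.048 on the high fat diet and 1.87 ± 0.025 on the control diet (SD, n = 4 each). Rars2 was nearest to its counterpart, at 1.19 ± 0.101 on the high fat diet and 1.14 ± 0.091 on the control diet (SD, n = 4 each). By these values, isoleucine, cysteine and arginine were served by more mitochondrial than cytosolic synthetase mRNA per length. In control J the ratio of Rars2 to Rars was only 1.03. Iars2, Cars2 and Fars2 share exon bases with genes on the opposite strand, so their levels are uncertain. The order was mixed among libraries for Fars2 with Farsb, Vars2 with Vars and Yars2 with Yars.

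With its sign, the log2 change of the mitochondrial gene lay above that of its cytosolic counterpart in 13 of the 16. This is not a larger change in size: Tars2 was at -0.024 and Tars at -0.23. In 4 the ratio was higher in every high fat library than in every control library, in 0 it was lower throughout, and in 12 the diets overlapped. The ratio of Wars2 to Wars was 0.299 ± 0.018 on the high fat diet and 0.230 ± 0.026 on the control diet (SD, n = 4 each), the widest relative difference of the 4. Tars2 to Tars stood at 0.781 ± 0.031 on the high fat diet and 0.678 ± 0.027 on the control diet, and Aars2 to Aars at 0.359 ± 0.016 on the high fat diet and 0.308 ± 0.013 on the control diet (SD, n = 4 each). The fourth was Fars2 to Farsa. Some of these combinations share a gene, and the ratios carry no test. Aars, Tars and Wars were already counted above as separated between the diets, so these ratios are not a separate result. Of single tested genes, 8.31% lay higher without overlap, and no share over other gene pairs was taken.

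Other genes of tRNA charging showed few calls. The counts in this and the later gene lists stand beside 5.13% lower and 4.86% higher over all tested genes. The 3 non-catalytic scaffold genes of the multisynthetase complex had 0 called by edgeR, DESeq2 or limma-voom and 1 at an unadjusted p under 0.05. That gene, Eef1e1, had 10.8 ± 1.37 CPM on the high fat diet and 13.5 ± 0.975 CPM on the control diet (SD, n = 4 each; log2 fold change -0.32, adjusted p = 0.0715 in edgeR). Mitochondria charge glutamine tRNA through a transamidase in place of a glutaminyl-tRNA synthetase. Of the 4 genes for that transamidase and for methionyl-tRNA formyltransferase, 1 rose: Gatb, listed in the files under its older symbol Pet112l. It had 92.9, 91.7, 82.7 and 82.8 CPM in high fat A, B, F and G, against 77.2, 72.3, 77.9 and 75.9 CPM in control I, J, L and M, a log2 fold change of 0.21 with adjusted p = 0.0465 in edgeR. The diets did not overlap, yet the call was lost in each of the 8 fits without 1 library, with adjusted p in edgeR of 0.109 (high fat A), 0.0936 (B), 0.0595 (F), 0.0531 (G), 0.0938 (control I), 0.105 (J), 0.0745 (L) and 0.0719 (M). Of 6 genes of tRNA export, maturation and proofreading, 0 were called by edgeR, DESeq2 or limma-voom, and at an unadjusted p under 0.05 Dtd1 was lower and Xpot, the tRNA exporter, higher.

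Downstream of charging, 1 of 5 cytosolic elongation factor genes fell and 0 rose, where 5.13% of all tested genes fell and 4.86% rose. Eef1g, a subunit of the exchange factor that reloads GTP onto the carrier of aminoacyl-tRNA, had 213, 205, 190 and 199 CPM in high fat A, B, F and G, against 243, 263, 250 and 234 CPM in control I, J, L and M. The diets did not overlap, with a log2 fold change of -0.29 ± 0.057 (SE; adjusted p = 0.0117 in edgeR), and the call held without each single library. Eef2, the translocation factor, was higher by DESeq2 alone (log2 fold change 0.14, adjusted p = 0.143 in edgeR). Of 9 mitochondrial translation factor genes, 1 fell, the release factor gene Mtrf1l, at 9.75 ± 0.340 CPM on the high fat diet and 12.7 ± 1.48 CPM on the control diet (SD, n = 4 each; log2 fold change -0.37, adjusted p = 0.0328 in edgeR). Its call was kept without control M alone and was lost without high fat A (adjusted p = 0.0571 in edgeR), B (0.0667), F (0.0810) or G (0.0640) and without control I (0.0879), J (0.0725) or L (0.0551).

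Among genes of the ATF4 response, whose known targets include many cytosolic synthetases, 4 of 21 tested members fell, 1 rose and 16 did not pass, where 5.13% of all tested genes fell and 4.86% rose. DESeq2 called 5 of them lower and 3 higher, adding Phgdh as lower and Psat1 and Ddit4 as higher, and limma-voom called 4 lower and 2 higher, adding Ddit4. The median log2 change of the list was 0.043, against -0.0023 over all tested genes. Atf4 itself had 64.0, 63.8, 60.1 and 58.2 CPM in high fat A, B, F and G, against 74.2, 81.9, 79.3 and 79.4 CPM in control I, J, L and M. It was lower in every high fat library than in any control library. In edgeR the log2 fold change was -0.35 ± 0.055 (SE; adjusted p = 0.0044), and the call held without each single library. Slc3a2, the shared heavy chain of amino acid transporters, and Psph, the last enzyme of serine synthesis, fell by 0.35 and 0.39 on the log2 scale. Mthfd2, a mitochondrial folate enzyme, fell by 0.54. Sesn2, a sensor of leucine, had 35.2, 24.6, 31.1 and 27.9 CPM in high fat A, B, F and G, against 16.8, 15.2, 20.0 and 23.1 CPM in control I, J, L and M, and rose by 0.65 (adjusted p = 0.0157 in edgeR). Without control J only Atf4 and Sesn2 of this list were called.

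The calls of Slc3a2, Psph and Mthfd2 held in only 3, 2 and 1 of the 8 fits that left out 1 library. Slc3a2 lost its call without high fat A (adjusted p = 0.0588 in edgeR) or F (0.0669) and without control I (0.0530), J (0.0608) or L (0.0531). Psph lost it without high fat B (0.0709), F (0.106) or G (0.0754) and without control I (0.0684), J (0.0716) or L (0.0905), all adjusted p in edgeR. Mthfd2, at only 2.09 ± 0.226 CPM on the high fat diet and 3.07 ± 0.437 CPM on the control diet (SD, n = 4 each), kept its call without control I alone. The adjusted p of Mthfd2 in edgeR was 0.0926 without high fat A, 0.0587 without B, 0.0915 without F, 0.0694 without G, 0.0891 without control J, 0.0690 without L and 0.0847 without M. Asns, asparagine synthetase, a much used readout of this response, had 2.79 ± 0.616 CPM on the high fat diet and 2.96 ± 0.347 CPM on the control diet (SD, n = 4 each; adjusted p = 0.746 in edgeR). Chac1 was too low to be tested.

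Of 7 genes of the eIF2 kinases, their substrate and its phosphatase, 1 fell, where 5.13% of all tested genes fell. Eif2s1, the alpha subunit of eIF2 whose phosphorylation lets ATF4 be translated, had 48.5, 49.7, 44.0 and 41.6 CPM in high fat A, B, F and G, against 58.1, 60.3, 61.9 and 53.1 CPM in control I, J, L and M. The diets did not overlap, and its log2 fold change of -0.34 ± 0.072 (SE; adjusted p = 0.0157 in edgeR) kept its call without each single library. With control J and high fat G both left out, an alternative chosen after seeing the data, Atf4 was the only gene of these 7 lists still called, and 0 synthetase genes were. The GCN2 kinase gene Eif2ak4, whose product senses uncharged tRNA, had 21.3 ± 1.08 CPM on the high fat diet and 20.0 ± 0.722 CPM on the control diet (SD, n = 4 each; adjusted p = 0.412 in edgeR).

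The authors' deposited table by gene symbol lists 1133 genes with a ratio of high fat over control, where the counts hold 23504 symbols. Of these symbols, 14711 had enough counts to be tested here, and all 35 synthetase genes are among them. The share of 1133 in all symbols is therefore not a like measure for this family. Of the 35 synthetase genes, 5 are among those listed. In the authors' deposited table their ratios were 0.878 for Eprs, 0.922 for Nars, 0.857 for Tars, 0.898 for Aars and 1.19 for Farsb. The authors' deposited table by Ensembl gene, of 1175 genes, lists the same 5 symbols, with ratios of 0.881 for Eprs, 0.922 for Nars, 0.857 for Tars, 0.897 for Aars and 1.18 for Farsb. No mitochondrial synthetase of the 15 is in either of the authors' deposited tables.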

How the data were processed

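The submitters' processing notes name CASAVA 1.8.2, RSEM 1.2.9 and mm10. The values deposited by the authors are expected counts from RSEM, 1 row per gene symbol, and FPKM values, with 23491 symbols shared by both tables. In addition the authors deposited 2 comparison tables with a ratio (high fat divided by control) and, as a score, the posterior probability that a gene is equal in the diets. The tool behind them, and whether counting used strand, are not given in the sources used here.

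Expected counts were rounded, the Rn45s row was left out before library sizes, and all genes were tested in R 4.3.3 with edgeR 4.0.16 (TMM factors, filterByExpr, a quasi-likelihood F test of diet alone). The standard error of a log2 change is its size over the square root of its F value. CPM are TMM-normalized, and FPKM were rescaled to 1e6 per library without Rn45s. The procedure was tested on simulated data. The range of total depth is given with the results; genes with few counts are less precise.

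Alternatives were other size factors, DESeq2 1.42.0, limma-voom (limma 3.58.1), limma on log2(FPKM + 0.1) and log2(FPKM + 1), other filters and thresholds, unrounded counts, leaving out or keeping structural RNA, leaving out each library, and 2 added after the data were seen. Libraries of the diets share no letters, so none were paired. Membership rests on gene symbols, but the family and the other gene lists were picked for study with earlier results of these data known. Values per library are given for called members and for the 4 largest changes in each compartment, and in each list for called genes; other members given per library were chosen after their values were seen. Gene positions are from GENCODE M21 (GRCm38), and promoter sequences from RefSeq (GRCm38.p6); some sequence is not reported here. Older symbols (Pet112l, 6530401N04Rik, Emr1) were matched through RefSeq synonyms.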

Additional observations from a re-analysis of the deposited data

Results flagged for a closer look

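With 4 libraries per diet, the CPM of each synthetase gene was checked in each diet for a library far from the other 3. Of the 70 groups of 4, 4 held such a library, and chance flags about 1 in 20 groups. Ears2 was flagged in both diets, with high fat G at 10.4 CPM, below the 11.9 to 12.2 CPM of the other high fat libraries, and control J at 15.5 CPM, above the 12.1 to 12.2 CPM of the other control libraries. Rars2, the mitochondrial arginine enzyme, was flagged for high fat A at 45.5 CPM, below 48.5 to 49.0 CPM in the other high fat libraries. Kars was flagged for control J at 69.9 CPM, below 73.8 to 74.5 CPM in the other control libraries. Control J is the library in which Rn45s took 50.3% of the counts; its part in these values was not tested.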

How the results depend on the processing

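The cytosolic median log2 change stayed below 0 under all 21 alternatives and moved by less than the spread between libraries. The mitochondrial median of 0.013 did not keep its sign: it was below 0 under 5 of them. It moved by more than that spread without control J, where it was -0.032, and over the fits without 1 library it ran from -0.032 to 0.028. The call counts did not hold. The 2 cytosolic genes called lower became 1 with DESeq2 size factors, 0 on log2(FPKM + 0.1) or log2(FPKM + 1), 0 with control J and high fat G both left out (chosen after seeing the data), 0 to 2 without 1 library, and 5 at an adjusted p under 0.1. The 1 called higher became 0 on either FPKM scale, with no filter on low counts or with both of those libraries left out, and 0 to 1 without 1 library. Over all genes 1469 calls became 848 on log2(FPKM + 0.1), 858 on log2(FPKM + 1), 417 with both of those libraries left out, 2547 at an adjusted p under 0.1, and between 739 and 1528 without 1 library, lowest without high fat F. DESeq2's Wald test, limma-voom, unrounded counts, keeping Rn45s, leaving out 779 structural RNA rows and a minimum of 5 CPM each called the same 3 synthetase genes, Eprs, Tars and Farsb. Of the genes that changed sign, Vars (0.11, SE 0.14) was -0.0085 and Nars2 -0.018 with control J and high fat G both left out, Nars2 was -0.0043 with the length trend removed, and without 1 library Hars2 ran from -0.032 to 0.10, Nars2 from -0.021 to 0.042, Mars2 from -0.038 to 0.0022 and Tars2 from -0.050 to 0.0061. The causes were not tested, beyond the fewer libraries in some fits. Median log2 change rose with transcript length over all genes, from -0.065 in the 10% of shortest genes to 0.058 in the 10% of longest; median lengths were 2596 bases for cytosolic, 2494 for mitochondrial and 2732 for all tested genes. No paired analysis was possible because the library letters differ between the diets. Depth limits the low genes most, such as Pars2.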
